A study of Homo sapiens with 4 samples.

Results

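The endoplasmic reticulum chaperones and XBP1 targets are 10 genes whose products fold secreted and membrane proteins in the endoplasmic reticulum (ER) or help to discard the molecules that fail to fold: HSPA5, HSP90B1, XBP1, DNAJB9, HERPUD1, SEL1L, PDIA4, CALR, EDEM1 and SDF2L1. They were chosen by name, with earlier results of these data known. Every gene spot that carries one of these names was used, which gave 22 of the 43118 gene spots and 10 of the 27274 gene names on the array. The spots belong to 13 probes, each a 60-base oligonucleotide. HSP90B1 has 2 probes, SEL1L has 3 and each of the other 8 genes has 1; the XBP1 probe is printed in 10 copies.

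The RNA came from LNCaP and PC3, which are established human prostate cancer cell lines, the first derived from a lymph node metastasis and the second from a bone metastasis. Both were grown in RPMI medium with fetal bovine serum and were left untreated (LNCaP control, PC3 control) or were given 10 µM atorvastatin for 24 h (LNCaP ATO, PC3 ATO); the labels name no vehicle for the controls. Atorvastatin (ATO) is a statin, an inhibitor of HMG-CoA reductase and thereby of cholesterol and isoprenoid synthesis. Each of the 4 groups is 1 sample on 1 one-colour array, so that within a line the effect of ATO has no replicate spread and no test. The arrays carried the markers of their lines: KLK3 (prostate-specific antigen) was well above background on the LNCaP arrays and not on the PC3 arrays, and CAV1 and CD44 were so on the PC3 arrays alone. TMPRSS2 and VIM were measured in both lines, with log2 differences of -4.13 and 7.24 between PC3 control and LNCaP control. Some of these markers also differed with ATO. In PC3 cells TMPRSS2 was 2.03-fold higher (392 to 770 units) and CAV1 2.39-fold lower (12387 to 5019 units), and in LNCaP cells VIM was 1.98-fold higher (65 to 138 units), with CAV1 and VIM each in a bright local background on 1 array; their part in the results given here was not tested.

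When unfolded proteins pile up in the ER, 3 membrane sensors respond: IRE1 (gene ERN1), PERK (EIF2AK3) and ATF6. IRE1 splices XBP1 mRNA into the form that encodes an active transcription factor, PERK raises translation of ATF4 and through it CHOP (DDIT3), and ATF6 is released by the proteases of MBTPS1 and MBTPS2, which also cut the sterol-sensing SREBP factors. XBP1 and ATF6 act on genes of chaperones and of ER-associated degradation, the route by which misfolded proteins are drawn back into the cytosol and destroyed.

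In PC3 cells 4 of the 10 genes were more than 2-fold higher with ATO, namely HERPUD1, HSPA5, DNAJB9 and XBP1, and the brightest probes of the other 6 stayed within 1.27-fold of their control. In LNCaP cells none of the 10 reached 1.5-fold, and the highest ratio, that of DNAJB9, was 1.26-fold. A gene counted as higher or lower at a fold of at least 1.5, with each array scaled to its 75th percentile and each gene taken from its brightest probe. Over all genes measured the share called higher at that fold was 8.2% in PC3 cells and 2.77% in LNCaP cells, and the share called lower was 10.3% and 1.99%. The median log2 ratio of the 10 genes was 0.30 in PC3 cells and 0.10 in LNCaP cells, beside -0.01 and 0.00 over all genes. All 10 ratios lay above 0 in PC3 cells, where 49.1% of all genes did, and 8 of 10 did so in LNCaP cells, where 48.6% of all genes did. SDF2L1 was below 0 in PC3 cells under scaling to spike-in probes (-0.03), it changed sign with the scaling in LNCaP cells, and HSP90B1 was below 0 in LNCaP cells (-0.02) when its probes were summarised by their median.

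**Figure D1:**
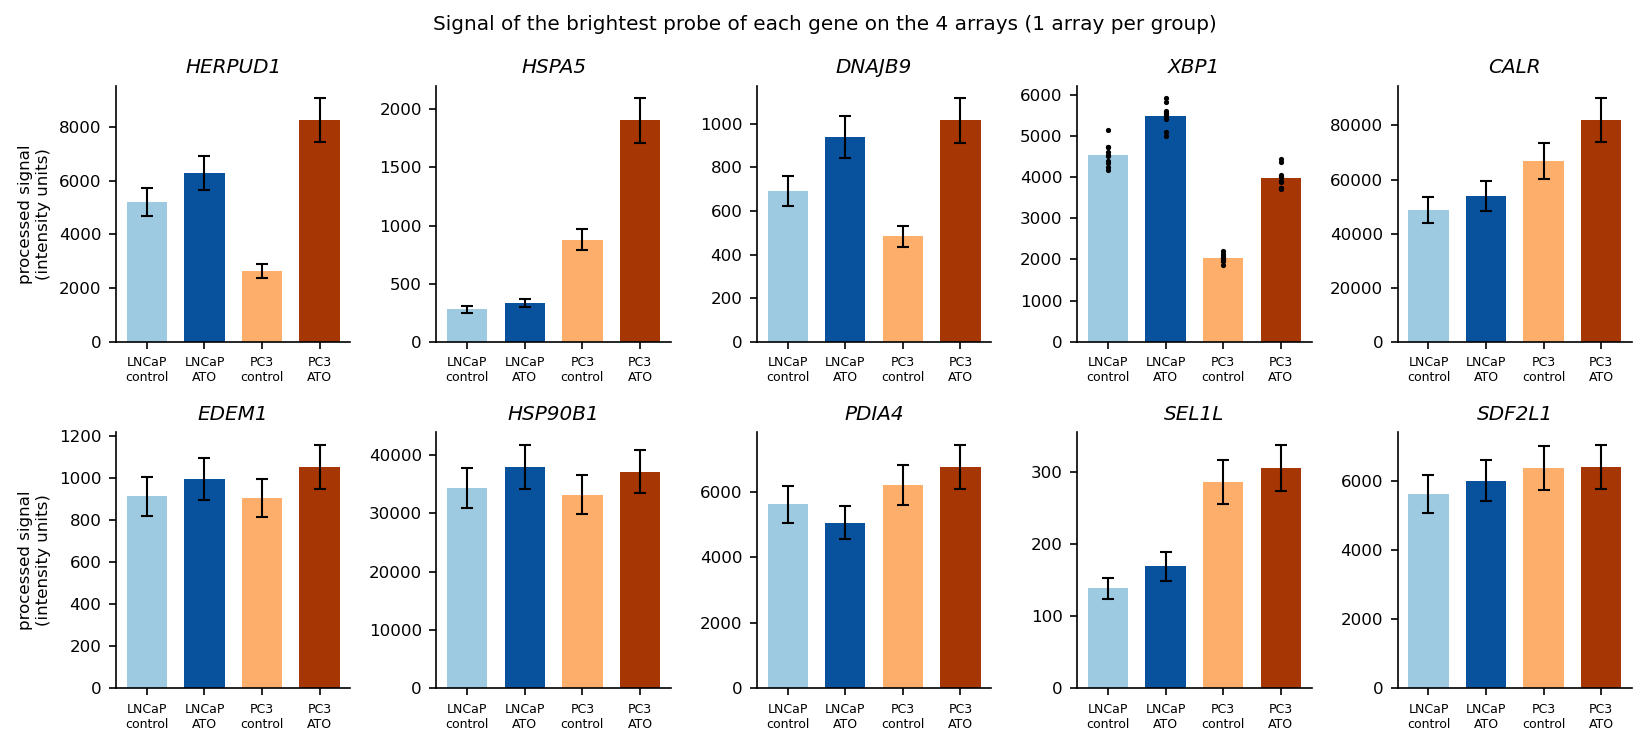
Processed signal in intensity units, before scaling between arrays, of the brightest probe of each gene on the 4 arrays. Bars are the signal, error bars on single spots are the scanner software's own error estimate of about 10%, and points are the unflagged copies of the XBP1 spot; HERPUD1, HSPA5, DNAJB9 and XBP1 show a taller bar for PC3 ATO than for PC3 control, while the bars of SDF2L1 are nearly level.

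XBP1, the transcription factor of the pathway, is the best measured of the 10 genes because of its 10 copies on each array. The copies averaged 4533 units without and 5489 with ATO in LNCaP cells, and 2028 without and 3974 with ATO in PC3 cells. In PC3 cells the 9 unflagged control copies ran from 1859 to 2210 and the 10 ATO copies from 3702 to 4427, so the arrays did not overlap. In LNCaP cells the control copies ran from 4182 to 5135 and the ATO copies from 5002 to 5916, and the ranges overlapped. The log2 ratio of ATO over control was 1.02 in PC3 cells (2.03-fold) and 0.18 in LNCaP cells (1.13-fold). The copies had an SD of 0.07 to 0.09 on the log2 scale within an array; they measure the printing and scanning of 1 RNA sample and are not biological replicates. One PC3 control copy, at 3205 units, was called an outlier by the scanner software and lay where the local background was 1.54 times the array's median. Among the unflagged copies, 2 on the PC3 ATO array lay in a background still brighter, at 2.04 and 1.96 times the median, and they read 3702 and 3890 units, in the lower part of their range. On the LNCaP ATO array 2 unflagged copies lay at 1.89 and 1.90 times the median and read 5565 and 5002 units, the latter being the lower end of that array's range. The probe lies at chr22:27520733-27520792 (hg18, minus strand) and is annotated to both the unspliced and the spliced XBP1 transcript, so it does not tell these forms apart; the exon or untranslated region in which a probe lies is not given in the sources used here.

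**Figure D2:**
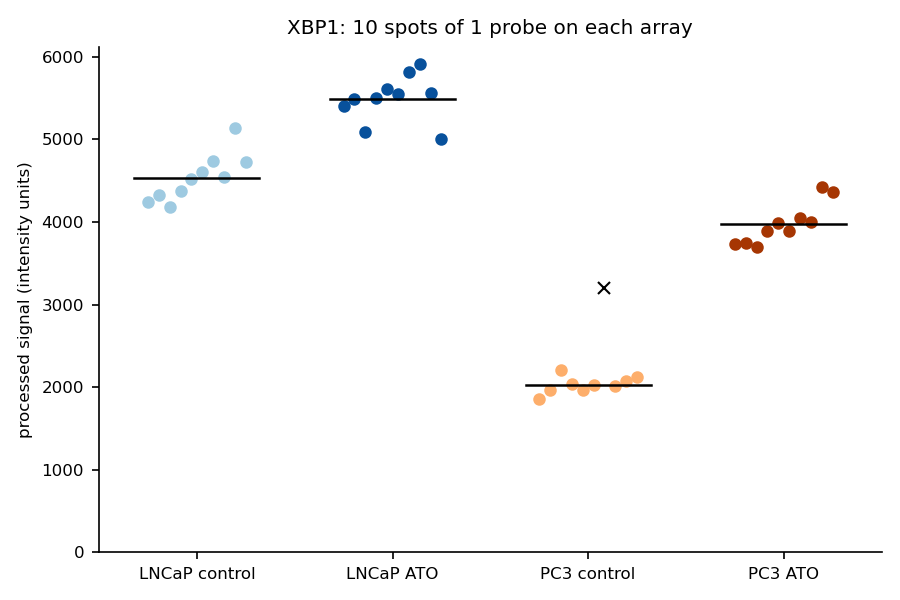
Processed signal in intensity units of the 10 copies of the XBP1 probe on each array; horizontal lines are the geometric mean of the unflagged copies and the cross is the copy called an outlier on the PC3 control array. The PC3 ATO copies (3702 to 4427) all lie above the unflagged PC3 control copies (1859 to 2210), while the ranges of the LNCaP arrays overlap.

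The promoter of XBP1 is shown because it holds an ER stress response element (ERSE), the sequence through which ATF6 and XBP1 act together with the factor NF-Y. The ERSE was searched as CCAAT and CCACG with any 9 bases between them, its shorter relative ERSE-II as ATTGG and CCACG with any 1 base between them, and the core of the unfolded protein response element as TGACGTG, on both strands, in RefSeq promoters of 300 bases (GRCh38.p14; 250 bases before and 50 after each start site). The fixed letters of a match are in capitals in the sequences printed here, which read along the gene's strand. The first XBP1 promoter, chr22:28800520-28800819 (minus strand), holds the ERSE 52 to 34 bases before the start, and the second listed promoter, at chr22:28800028-28800327, holds none of the motifs.
XBP1: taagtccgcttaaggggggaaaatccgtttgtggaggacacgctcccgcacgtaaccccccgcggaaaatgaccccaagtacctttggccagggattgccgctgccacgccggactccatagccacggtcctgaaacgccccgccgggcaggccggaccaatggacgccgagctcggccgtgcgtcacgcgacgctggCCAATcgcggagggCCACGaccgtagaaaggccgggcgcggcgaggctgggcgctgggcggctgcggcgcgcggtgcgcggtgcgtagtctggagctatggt

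HSPA5 encodes BiP, the ER member of the Hsp70 family, which binds unfolded chains and also keeps the stress sensors inactive. Its single spot read 279 units without and 331 with ATO in LNCaP cells, and 879 without and 1905 with ATO in PC3 cells. The PC3 ATO array was the highest and both LNCaP arrays were the lowest. The log2 ratio of ATO over control was 1.16 in PC3 cells (2.24-fold) and 0.15 in LNCaP cells (1.11-fold). The scanner software gave each of these 4 spots an error of 10.0% to 10.5%, which covers the spot and not the culture. The probe lies at chr9:127036970-127037029 (hg18, minus strand). The promoter, chr9:125241294-125241593 (GRCh38.p14, minus strand), holds 1 exact match to the searched ERSE letters, 66 to 48 bases before the start. Copies of the element with other letters were not searched.
HSPA5: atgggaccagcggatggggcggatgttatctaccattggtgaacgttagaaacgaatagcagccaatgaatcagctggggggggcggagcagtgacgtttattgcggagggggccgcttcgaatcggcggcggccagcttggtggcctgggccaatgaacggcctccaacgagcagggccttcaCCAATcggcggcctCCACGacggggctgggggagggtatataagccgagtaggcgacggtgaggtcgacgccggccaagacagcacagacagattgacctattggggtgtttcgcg

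DNAJB9 encodes ERdj4, a J-domain cochaperone that works with BiP. In LNCaP cells its spot read 693 units without and 940 with ATO, and in PC3 cells 484 and 1016. PC3 control was the lowest of the 4 arrays and the 2 ATO arrays were the highest. The log2 ratio of ATO over control was 1.12 in PC3 cells (2.17-fold) and 0.34 in LNCaP cells (1.26-fold). This was the largest LNCaP ratio of the 10 genes on their brightest probes. With probes summarised by their median, SEL1L was above it at 0.37. The probe lies at chr7:108001751-108001810 (hg18, plus strand). The promoter is shown because DNAJB9 is the only one of the 4 genes past 2-fold in PC3 cells with none of the 3 motifs in its window, chr7:108569624-108569923 (GRCh38.p14, plus strand).
DNAJB9: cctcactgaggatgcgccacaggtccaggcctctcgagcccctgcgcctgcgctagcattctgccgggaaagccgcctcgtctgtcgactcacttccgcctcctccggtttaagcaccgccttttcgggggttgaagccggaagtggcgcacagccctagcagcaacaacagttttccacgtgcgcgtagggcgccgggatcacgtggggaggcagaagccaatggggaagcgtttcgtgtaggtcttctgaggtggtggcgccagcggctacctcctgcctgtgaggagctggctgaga

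HERPUD1 encodes HERP, a membrane protein of the ubiquitin ligase complex of ER-associated degradation. In LNCaP cells its spot read 5216 units without ATO and 6282 with it, and in PC3 cells 2632 and 8251. PC3 control was the lowest of the 4 arrays and PC3 ATO the highest. The log2 ratio of ATO over control was 1.70 in PC3 cells (3.24-fold), the largest of the 10 genes, and 0.17 in LNCaP cells (1.12-fold). The probe lies at chr16:55535201-55535260 (hg18, plus strand). The promoter, chr16:56931892-56932191 (GRCh38.p14, plus strand), holds an ERSE-II 117 to 107 bases before the start.
HERPUD1: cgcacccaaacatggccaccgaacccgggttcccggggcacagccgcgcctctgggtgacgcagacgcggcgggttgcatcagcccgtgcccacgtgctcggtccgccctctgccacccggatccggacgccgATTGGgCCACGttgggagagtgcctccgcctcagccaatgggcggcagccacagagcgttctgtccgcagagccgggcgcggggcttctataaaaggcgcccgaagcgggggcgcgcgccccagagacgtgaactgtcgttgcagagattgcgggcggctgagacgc

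Both PC3 arrays held 12513 genes well above background, and among these HERPUD1 had rank 32 from the highest ratio, HSPA5 rank 142, DNAJB9 rank 160 and XBP1 rank 214. All 4 kept a fold of at least 1.5 in PC3 cells under every scaling, background correction and filter tried, and in the main setting all 4 also passed 2-fold, where 2.29% of all genes were called higher. XBP1 missed 2-fold with the spike-in probes, with normexp and with outlier spots kept, at log2 ratios of 0.93, 0.99 and 0.95. The lowest log2 ratios over those settings were 1.48 for HERPUD1, 1.08 for HSPA5, 1.03 for DNAJB9 and 0.93 for XBP1. Under scaling to the 50th percentile the share of all genes called higher in PC3 cells was 15.6% and the share called lower 6.59%, beside 8.2% and 10.3% in the main setting, and the 4 ratios ran from 1.21 to 1.89.

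The other chaperones and folding enzymes stayed near their controls. HSP90B1, the ER Hsp90 paralog known as GRP94, read 34404 units without and 38004 with ATO in LNCaP cells and 33216 and 37195 in PC3 cells on its brighter probe, with log2 ratios of 0.21 in PC3 cells and 0.04 in LNCaP cells. Its dimmer probe, whose 60 bases span 2803 bases of chromosome 12 in hg18 and therefore cross at least 1 intron, read 2337 and 2362 units in LNCaP cells and 2094 and 2659 in PC3 cells, with ratios of -0.08 and 0.39. The probes, at chr12:102865666-102865725 and chr12:102861780-102864582, gave opposite signs in LNCaP cells. CALR, the lectin chaperone calreticulin, read 48764 units without and 53911 with ATO in LNCaP cells, and 66876 and 81880 in PC3 cells. Its log2 ratio was 0.34 in PC3 cells (1.27-fold) and 0.04 in LNCaP cells, and no spot was called saturated on any array. Its probe lies at chr19:12916230-12916289 (hg18, plus strand). PDIA4, a protein disulfide isomerase also called ERp72, read 5632 and 5065 units in LNCaP control and ATO and 6217 and 6771 in PC3 control and ATO. Its log2 ratio was -0.25 in LNCaP cells, the lowest of the 10 genes, and 0.17 in PC3 cells. The PDIA4 probe lies at chr7:148331837-148331896 (hg18, minus strand) and that of SDF2L1 at chr22:20328511-20328570 (hg18, plus strand). SDF2L1, which joins BiP complexes as a partner of J-domain cochaperones, read 5615 and 6003 units in LNCaP cells and 6356 and 6402 in PC3 cells, without ATO first, and its ratios were 0.06 in PC3 cells and -0.004 in LNCaP cells.

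Among these chaperones HSP90B1, CALR and SDF2L1 held promoter motifs, and none of them reached 1.5-fold. The windows around their elements are shown with 15 bases on either side, for comparison with the promoters of the genes that were higher. HSP90B1 has 2 exact ERSE matches, 1 in each orientation, at chr12:103930216-103930234 and chr12:103930321-103930339 (GRCh38.p14). CALR has 1 in reverse at chr19:12938384-12938402, and SDF2L1 has a reverse ERSE-II match at chr22:21642114-21642124 (GRCh38.p14). In a reverse match the capitals read as the reverse complement of the motif.
HSP90B1, upstream element: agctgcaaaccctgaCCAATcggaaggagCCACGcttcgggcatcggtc
HSP90B1, downstream element: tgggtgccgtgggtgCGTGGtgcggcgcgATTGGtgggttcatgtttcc
CALR: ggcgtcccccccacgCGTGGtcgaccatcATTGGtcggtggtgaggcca
SDF2L1: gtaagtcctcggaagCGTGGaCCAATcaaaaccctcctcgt

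All 10 genes matched a RefSeq promoter by symbol, with 12 promoters in all. ERSE letters lay in the promoters of 4 of the 10 genes (HSPA5, HSP90B1, XBP1 and CALR), beside 0.0916% of all 27305 genes with a listed promoter. ERSE-II letters lay in those of 2 (HERPUD1 and SDF2L1), beside 0.0696% of all these genes. The TGACGTG core lay in none of the 12 promoters, beside 1.97% of all 35116 promoters. The 10 genes include the ones from which such elements were first described, so their high share is no measurement of these cells. Of the 6 genes with an ERSE or ERSE-II, 3 passed 1.5-fold in PC3 cells, and of the 4 without, 1 did. The counts cover exact matches only, so copies of an element with other letters are not in them. No match says only that the searched letters are not in the window. Over all array genes with an ERSE or ERSE-II promoter, a grouping made after the values of the 10 genes were seen, 5 of 28 were called higher in PC3 cells (17.9%) and 1 lower, beside 8.1% and 9.53% of the 8430 measured genes with a listed promoter. Besides HERPUD1, HSPA5 and XBP1 the higher genes were CNKSR1 (log2 ratio 0.67) and TRIM5 (0.60), and the lower one was SYNPO (-0.62). In LNCaP cells 0 of 26 were called, beside 2.31% higher and 1.71% lower of the 8229 measured genes with a listed promoter. At those shares a list of this length would hold few or no calls. With the 10 genes themselves left out, 2 of 22 were called higher in PC3 cells (9.09%) and 1 lower (4.55%), a share of higher genes near that of all genes with a listed promoter.

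**Figure D3:**
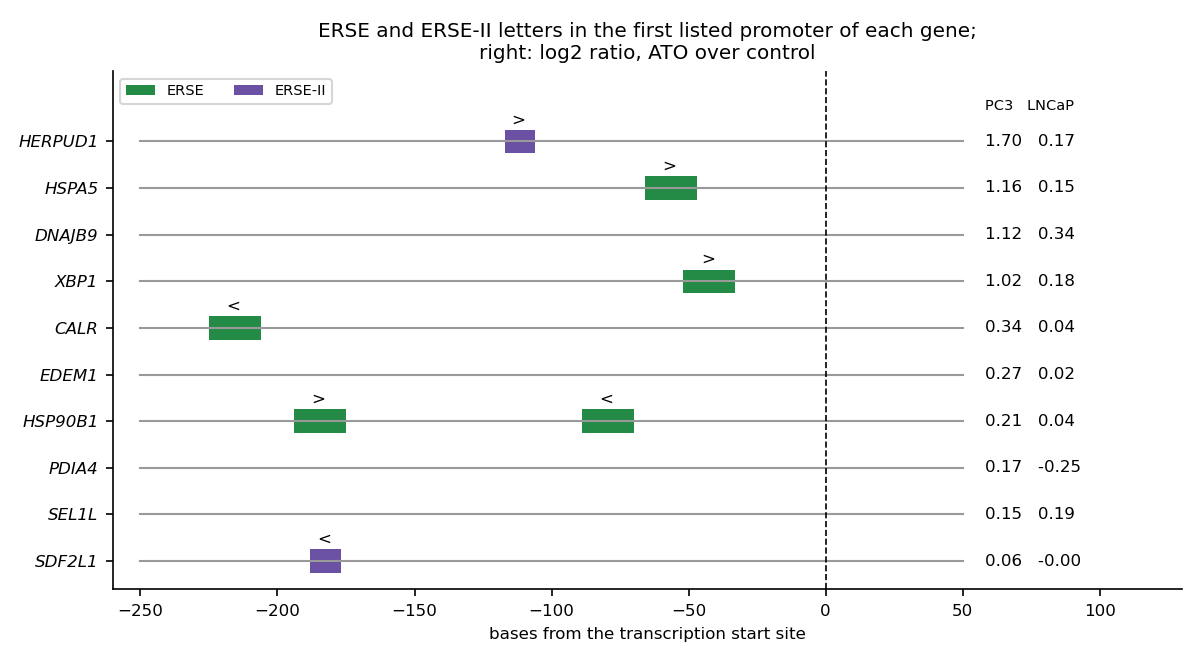
Positions of ERSE and ERSE-II letters, in bases from the transcription start site (dashed line), in the first listed RefSeq promoter of each gene; arrowheads give the orientation relative to the gene and the numbers at the right are the log2 ratios of ATO over control in PC3 and LNCaP cells. Elements occur both in genes with high PC3 ratios (HERPUD1, HSPA5, XBP1) and in genes with low ones (CALR, HSP90B1, SDF2L1), and DNAJB9, with a ratio of 1.12, has none.

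The remaining degradation genes were also near their controls. SEL1L, the adaptor that links HERP-containing complexes to their substrates, read 139 units without and 169 with ATO in LNCaP cells, and 286 and 306 in PC3 cells, on its brightest probe at chr14:81008993-81009052 (hg18, minus strand), with log2 ratios of 0.19 in LNCaP cells and 0.15 in PC3 cells. Its second probe, at chr14:81015710-81015769 (hg18, minus strand), read 103 and 163 units in LNCaP cells and 127 and 117 in PC3 cells, with ratios of 0.56 in LNCaP cells and -0.06 in PC3 cells. On the LNCaP ATO array that spot lay where the local background was 2.45 times the array's median; the part of this background in the ratio was not tested. The third SEL1L probe, at chr14:81007814-81007873, was not well above background on any array. EDEM1, a lectin that hands glycoproteins over to degradation, read 914 units without and 995 with ATO in LNCaP cells, and 905 and 1054 in PC3 cells, with ratios of 0.02 in LNCaP cells and 0.27 in PC3 cells on a probe at chr3:5235840-5235899 (hg18, plus strand).

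**Figure D4:**
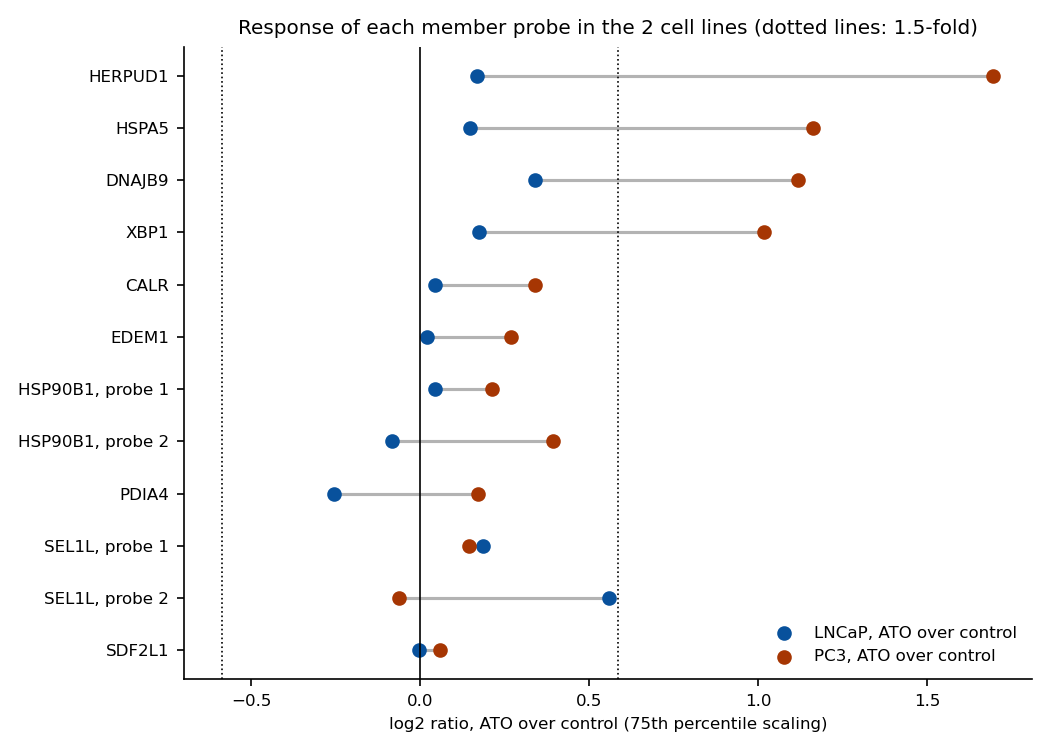
Log2 ratio of ATO over control, after scaling to the 75th percentile, of the 12 member probes well above background on all 4 arrays, in LNCaP cells (blue) and PC3 cells (brown); dotted lines mark 1.5-fold. The 4 topmost genes lie between 1.02 and 1.70 in PC3 cells and between 0.15 and 0.34 in LNCaP cells, and under this scaling SEL1L alone has LNCaP points to the right of its PC3 points.

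Under the 75th percentile the PC3 ratio was above the LNCaP ratio in 9 of the 10 genes, all but SEL1L, beside 49.9% of the 11016 genes that every array measured well above background. The PC3 ratio exceeded the LNCaP ratio by at least 1.5-fold in 4 genes, beside 6.03% of all genes, with log2 differences of 1.53 for HERPUD1, 1.02 for HSPA5, 0.84 for XBP1 and 0.78 for DNAJB9. These counts depended on the scaling, as tried after the data were seen. The PC3 ratio was the higher one in 7 genes with the spike-in probes, where HSP90B1 and SDF2L1 joined SEL1L, and in 10 with the 50th percentile and with normexp. It exceeded the LNCaP ratio by 1.5-fold in 3 genes with the spike-in probes, where DNAJB9 had a difference of 0.54, and in 5 with the 50th percentile, where PDIA4 was added. With 1 array per group the difference between the lines was not tested. With both lines taken as 2 replicates of the treatment, the mean log2 ratio (± SE) was 0.93 ± 0.43 for HERPUD1, 0.73 ± 0.24 for DNAJB9, 0.66 ± 0.30 for HSPA5 and 0.60 ± 0.26 for XBP1. The residual behind these SE values is the difference between the lines in their response to ATO. The SE therefore grows with that difference and is not a spread of replicates, so a gene that responds in 1 line alone gets a large SE. The fit also drew the variance behind each SE toward a value shared by all genes, so that difference does not set the SE alone. In this limma fit, which has 1 residual degree of freedom, none of the 10 genes passed an adjusted p of 0.05 over 11902 genes, and their adjusted p ranged from 0.762 to 0.960. Before adjustment limma put DNAJB9 alone of these genes under a p of 0.05, beside 4.47% of all genes. The fit called 0 of the 11902 genes after adjustment, and 532 before it.

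In the untreated lines, PC3 control was 2.66-fold higher than LNCaP control for HSPA5, 2.65-fold lower for XBP1, 2.35-fold lower for HERPUD1 and 1.70-fold lower for DNAJB9. At the 2-fold threshold used between lines 1 of the 10 genes was thus higher and 2 were lower, beside 20.6% and 19.0% of all genes, and the other 7 were within it. These calls depended on the scaling. Under the 50th percentile, which moved the median of all genes by -0.44, HSPA5 had a log2 difference of 0.97 and missed 2-fold while DNAJB9, at -1.21, passed it, which gave 0 genes higher and 3 lower. Under the spike-in probes, which moved that median by 0.51, XBP1 and HERPUD1 had log2 differences of -0.89 and -0.72 and missed it while SEL1L, at 1.31, passed it, which gave 2 higher and 0 lower. With cyclic loess HERPUD1 also missed it, at -0.997. The shares of all genes called higher and lower were 14.8% and 31.1% under the 50th percentile, 30.4% and 9.9% under the spike-in probes. Set against LNCaP control, a comparison chosen after the values were seen, the PC3 ATO array had a log2 difference of -0.39 for XBP1, 0.36 for DNAJB9, 0.47 for HERPUD1 and 2.58 for HSPA5 under the 75th percentile, and with the spike-in probes it had 0.04 for XBP1, 0.78 for DNAJB9 and 0.89 for HERPUD1.

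Wider lists of ER genes were set beside the 10 genes and described by counts and medians alone. They were written from general knowledge, with earlier results of these data known. Over all genes measured, 8.2% were called higher and 10.3% lower in PC3 cells, and 2.77% and 1.99% in LNCaP cells. At those LNCaP shares lists of this length would hold few or no calls. Of 18 other ER-associated degradation genes measured, 4 were at least 1.5-fold higher in PC3 cells and none was lower: ERLEC1, a lectin (1496 to 3217 units, log2 ratio 1.15, with 1 of its 4 spots in a bright local background), VCP, the ATPase that pulls substrates out of the membrane (4901 to 9386, 0.99), SELENOS, a membrane partner of VCP (1944 to 3254, 0.79), and EDEM3, a mannosidase-like protein (979 to 1588, 0.75). The same 4 genes were called under each of the 6 scalings and background corrections, and none of the 18 was called in LNCaP cells under any of them. Of 22 translocon and ER to Golgi transport genes, 3 were higher in PC3 cells, the COPII coat genes SEC24D (210 to 452, 1.15) and SEC31A (993 to 1514, 0.66) and the retrieval receptor KDELR3 (1448 to 3017, 1.11), and 1 was lower, the translocon-associated SSR3 (1239 to 741, -0.69); none was called in LNCaP cells. Under the 50th percentile 6 of the 22 were higher in PC3 cells and none lower, and with the spike-in probes SEC31A was no longer called. Of the other ER chaperones and folding enzymes, 21 were measured in PC3 cells and 24 in LNCaP cells, and none was called in either line; the medians were 0.18 and 0.00. Under the 50th percentile, where all genes moved up by 0.20 in PC3 cells, HYOU1, DNAJC3, PDIA5 and FKBP2 passed 1.5-fold, and under the spike-in probes UGGT1 was lower.

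Of the sensors, EIF2AK3 read 77 units in PC3 control and 214 in PC3 ATO, a log2 ratio of 1.52. In LNCaP cells it read 52 and 59 units and was not well above background with ATO. ATF6 was near its control in both lines, with log2 ratios of -0.15 in PC3 cells and 0.11 in LNCaP cells, and ERN1 was not well above background on any array. The proteases MBTPS1 and MBTPS2 had ratios of 0.12 and -0.41 in PC3 cells. Of 10 ATF4 and CHOP genes, 8 were higher in PC3 cells, beside 8.2% of all genes, and the list median was 1.02. The highest were DDIT4 (458 to 2081 units, 2.23), DDIT3 (939 to 3383, 1.90) and CHAC1 (1307 to 4319, 1.77). The activity of PERK was not measured, so its part in these ratios was not tested. ATF4 itself lay at the threshold (0.58) and was not called with the spike-in probes, quantile normalization or cyclic loess, which left 7 of 10. In LNCaP cells 2 of those 10 were higher, DDIT4 (0.66) and CHAC1 (0.62), beside 2.77% of all genes. The list median was 0.38, and the count of higher genes was 4 under the spike-in probes and 1 under normexp. None of the 11 cytosolic heat shock genes measured in PC3 cells, the chaperones of another compartment, was called, and their median was -0.04, though 3 passed 1.5-fold under the 50th percentile and HSPB1 did under cyclic loess and normexp; the 10 measured in LNCaP cells had a median of -0.16 with none called.

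**Figure D5:**
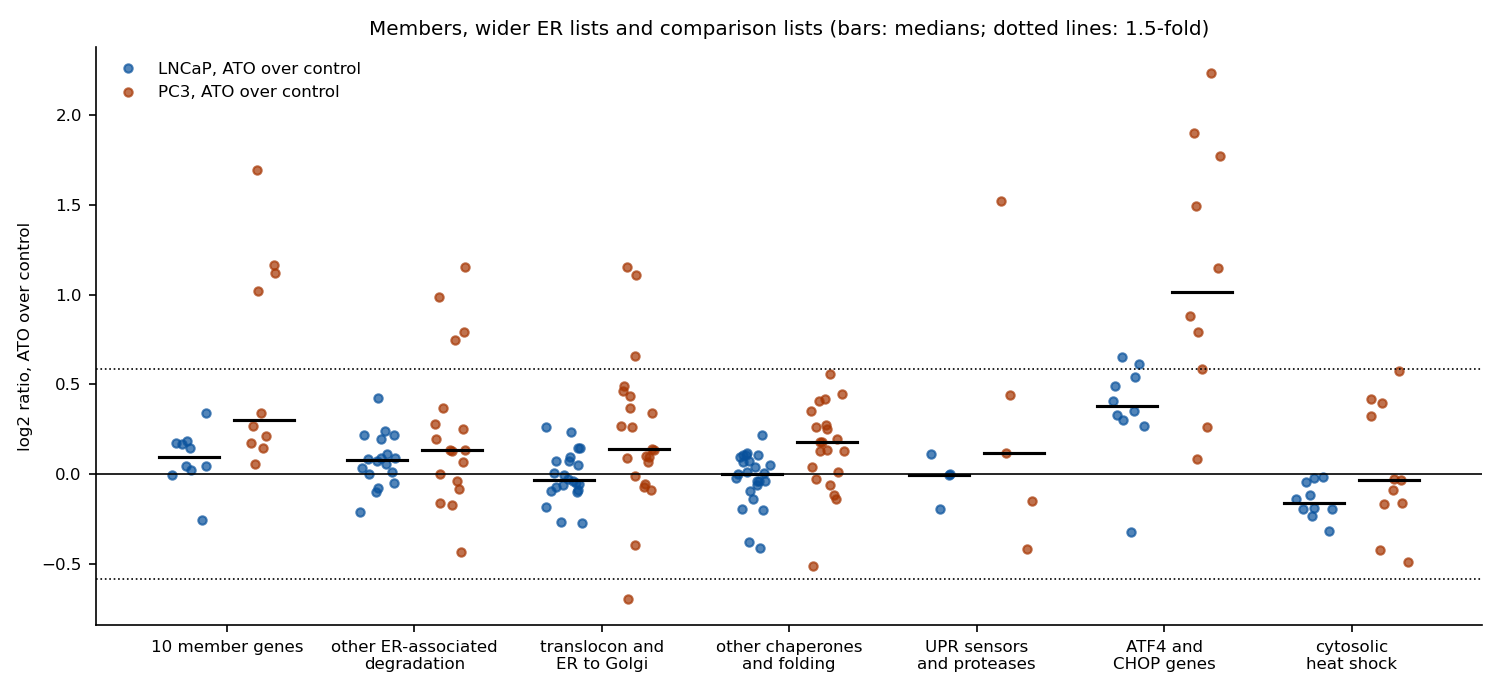
Log2 ratio of ATO over control for each measured gene of the 10 member genes, 4 wider ER lists and 2 comparison lists, in LNCaP cells (blue) and PC3 cells (brown); horizontal bars are list medians and dotted lines mark 1.5-fold. In PC3 cells the 10 member genes, the degradation list and the transport list each have a few genes past 1.5-fold and medians of 0.30, 0.14 and 0.14, whereas the ATF4 and CHOP genes have a median of 1.02.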

How the data were processed

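RNA of 1 sample per group was hybridised to Agilent Human v2 GE 4x44K arrays (design 026652, probe coordinates on hg18). The authors' deposited scanner files hold intensity values from Agilent Feature Extraction 9.5.3.1 per the file headers, with a fitted background subtracted, and its yes or no calls for outliers, saturation and signal well above background. The deposited series table, made with GeneSpring GX per the study's methods, holds ratio values that matched the processed intensity over each array's 75th percentile with a floor of 0.03, and served as an alternative. Samples were grouped by cell line and treatment per the labels. The genes and lists were chosen with earlier results of these data known.

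Control spots were left out. For each probe the log2 processed signal was averaged over spots without an outlier call, and the array's 75th percentile (497 units without and 533 with ATO in LNCaP cells, 588 and 569 in PC3 cells) was subtracted. A gene was represented by its brightest probe with a value on all 4 arrays. A probe was well above background where over 50% of its unflagged spots were so called; with 1 such array of a pair, the ratio is a bound against the lowest such signal of the other array. Of gene spots, 48.5% to 52.9% were well above background and 0 were saturated; the median SD of repeated spots was 0.09 to 0.10 (log2), and 1 array per group limits the precision. Within a line and between controls no test was possible, and calls were folds of 1.5 and 2. Treatment over both lines was tested with limma 3.58.1 in R 4.3.3 (two-sided, cell line as a block, 1 residual degree of freedom, Benjamini-Hochberg over 11902 genes well above background on both control or both ATO arrays), after a check on simulated data. Other scalings, normexp (offset 50), the deposited table, filters and thresholds were tried as alternatives.

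All 10 genes are named with every probe; of the other lists, genes past 1.5-fold with both arrays well above background were named, up to the 3 highest and 3 lowest per list and line, and ERN1, EIF2AK3 and ATF6 always. EDEM3, MBTPS1, MBTPS2, the genes called only under other scalings and the further ERSE genes were named after their values were seen. MANF, SYVN1 and SEC61G were listed but are not analysed here. One further cell line marker is not reported here. Motifs were searched in RefSeq promoters (GRCh38.p14) with Python 3.11.15.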

Additional observations from a re-analysis of the deposited data

Results flagged for a closer look

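PDIA4 and SDF2L1 had log2 ratios of ATO over control of opposite sign in the lines, which was not tested because each group is 1 array. PDIA4 had a ratio of -0.254 in LNCaP cells and 0.171 in PC3 cells, a difference of 0.425. SDF2L1 had ratios of -0.004 and 0.058, a difference of 0.063. Each of the SDF2L1 ratios was smaller in size than 0.143, called the technical spread here. It is the largest of the arrays' median SDs between copies of a probe on 1 array, scaled up for a ratio of single spots. It holds no variation between arrays, which was not measured.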

How the results depend on the processing

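In PC3 cells 4 of the 10 genes and in LNCaP cells 0 of the 10 passed 1.5-fold under each of the 11 alternatives, and limma called 0 of the 10 after adjustment under each of its 9, among them the fit with no replicate block, in which the cell line was left out. Between the controls 5 of the 10 genes passed a 1.5-fold threshold, at which 28.5% of all genes were called higher and 30.3% lower. At 2-fold 3 of the 10 passed, beside 20.6% and 19.0% of all genes. At that fold 2 passed with cyclic loess, beside 23.5% and 15.7% of all genes. With the spike-in probes 2 also passed, beside 30.4% and 9.9%. The median log2 ratio of the 10 genes moved beyond the technical spread of 0.143 with the scaling alone: in LNCaP cells to 0.251 with spike-in probes (main 0.096), in PC3 cells to 0.499 with the 50th percentile (main 0.304), and between controls to -0.622 with the 50th percentile, 0.331 with spike-in probes, 0.039 with quantile normalization and 0.093 with cyclic loess (main -0.179). In LNCaP cells, spike-in probes moved the median of all genes by 0.15 and the higher share of all calls from 58.2% to 77.1%, normexp moved that share to 46.3%, and without the filter on dim probes 38.1% of all genes were called higher; in PC3 cells the higher share was 44.4%, and 70.3% with the 50th percentile or 31.6% with spike-in probes. At an unadjusted p under 0.05 limma called 4 of the 10 with the 50th percentile, spike-in probes and normexp. Of all 11902 genes it called 683, 592 and 722 at that p, in the same order. After adjustment it called 5 and 2 of all genes with the first and second of these settings. Of 300 log2 ratios of single genes under alternatives, 62 moved beyond the technical spread, 39 of them between the controls, where 4 calls were lost and 2 gained. No called value changed sign, but 16 uncalled values did, 12 of them beyond the spread; between the controls HSP90B1, PDIA4, EDEM1 and SDF2L1 turned positive with spike-in probes (0.216, 0.409, 0.253 and 0.445) and CALR negative with the 50th percentile (-0.231). The PC3 ratio was above the LNCaP ratio in 7 to 10 of the 10 genes and 1.5-fold above it in 3 to 5 over the scalings (main 9 and 4). No replicate was available to leave out. For the other lists the scalings were tried after the data were seen. In PC3 cells the genes past 1.5-fold in either direction numbered 1 of the other chaperones with spike-in probes and 4 with the 50th percentile (main 0), 3 of the transport genes with spike-in probes and 6 with the 50th percentile (main 4), 7 of the ATF4 and CHOP genes with spike-in probes, quantile normalization and cyclic loess (main 8), 2 of the sensors and proteases with the 50th percentile and with quantile normalization (main 1), and 3 of the heat shock genes with the 50th percentile and 1 with cyclic loess and with normexp (main 0). In LNCaP cells they numbered 4 of the ATF4 and CHOP genes with spike-in probes and 1 with normexp (main 2).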
